A study of Mus musculus with 9 samples.

Results

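Clustered histone genes are the genes of the large histone gene clusters, which supply most of the histone protein that packages newly copied DNA. They were taken as all genes whose symbol begins with Hist1h, Hist2h, Hist3h or Hist4h, and 67 of the 19094 genes listed in at least 1 sample met this rule. Of these, 6 encode H1, 18 H2A, 18 H2B, 12 H3 and 13 H4. All 67 gene IDs matched RefSeq, with 54 genes on chromosome 13, 10 on chromosome 3, 2 on chromosome 11 and 1 on chromosome 6. RefSeq counts Hist1h2al as a transcribed pseudogene and the other 66 as protein coding. A further 3 clustered histone genes of RefSeq were listed in no sample.

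The study sampled 3T3-L1, a mouse preadipocyte line that becomes lipid-storing adipocytes in culture, with 3 replicates at each of 3 stages. Day 0 cells were near-confluent preadipocytes before induction. Day 4 cells had received dexamethasone, IBMX and insulin for 2 days and then maintenance medium with insulin for 2 days. Day 8 cells had spent 4 more days in fresh maintenance medium. Cells were pooled at each stage, and nothing states that replicates were separate cultures, so p-values measure the spread between these samples only. The labels give the cell line as the source, while their extraction text speaks of DRG, and marker levels of other cell types are given in the last paragraph.

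Histones H2A, H2B, H3 and H4 form the protein core around which DNA is wound, and the linker histone H1 binds where DNA enters and leaves this core. Most clustered histone genes are switched on in S phase, when DNA is copied. Their messages are unusual in that they have no introns and usually end in a short stem-loop, bound by Slbp, in place of a poly(A) tail. In cells that leave the cell cycle some of these genes are known to give polyadenylated messages that run past the stem-loop. Variant histones such as H3f3a lie outside the clusters, are polyadenylated and are made throughout the cell cycle.

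The stem-loop is shown first because it separates the messages of this family from nearly all others. The histone stem-loop pattern was found in a GENCODE vM21 transcript of 45 of the 67 genes, including 4 of 6 for H1, 10 of 18 for H2A, 10 of 18 for H2B, 9 of 12 for H3 and 12 of 13 for H4, against 0.189% of all 55450 genes. The form of Hist1h2ap below was the commonest, with 25 genes, and the form of Hist1h4h was held by 7 genes, all of class H4. The stretches lie beyond the coding sequence in single-exon transcripts, on GRCm38 at chr13:23739507-23739532 (forward strand) for Hist1h1c, chr13:21833026-21833049 (reverse) for Hist1h2ap, chr3:96246027-96246052 (forward) for Hist2h2aa1, chr13:23561898-23561923 (reverse) for Hist1h3e, chr13:23531453-23531478 (forward) for Hist1h4h and chr13:22040961-22040986 (reverse) for Hist1h4i. Capitals mark the arms of the stem.
Hist1h1c: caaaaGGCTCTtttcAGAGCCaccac
Hist1h2ap: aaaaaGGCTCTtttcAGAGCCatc
Hist2h2aa1: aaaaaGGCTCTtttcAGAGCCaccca
Hist1h3e: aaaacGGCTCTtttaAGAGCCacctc
Hist1h4h: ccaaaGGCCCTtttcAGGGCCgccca
Hist1h4i: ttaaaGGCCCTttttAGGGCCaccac

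After the stem-loop, the GENCODE transcript of Hist1h2ap has 3 more bases and that of Hist2h2aa1 35. That of Hist1h4h has 46, that of Hist1h4i 330 and that of Hist1h1c 840. The transcript lengths deposited with the counts are shorter, at 452, 556, 435, 403 and 725 bases in this order. The GENCODE lengths are 482, 586, 470, 727 and 1560 bases. The ends given here are therefore those of the annotation and not of the messages counted. A poly(A) signal, AATAAA or ATTAAA, stands in the last 50 bases of the transcripts of 17 of the 67 genes. Whether the libraries were made from poly(A)-selected RNA is not given in the sources used here.

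Promoters are shown for the most abundant gene that fell and for 3 that rose. They are the 200 bases before the RefSeq start on GRCm38.p6, at chr13:21833476-21833675 (reverse strand) for Hist1h2ap, chr13:23738607-23738806 (forward) for Hist1h1c, chr3:96245297-96245496 (forward) for Hist2h2aa1 and chr13:22041363-22041562 (reverse) for Hist1h4i. Capitals mark exact matches to 4 motifs on either strand, at any position. These are the CCAAT box, TATAAA (a form of the TATA box), the octamer ATTTGCAT and the H1 element AAACACA. Matches to TATAAA and AAACACA can overlap. The TATAAA marked in Hist1h4i lies in the part of the stretch farther from the start. Variants such as the tataag of Hist1h2ap are not marked, and whether a match serves as a TATA box was not tested.
Hist1h2ap: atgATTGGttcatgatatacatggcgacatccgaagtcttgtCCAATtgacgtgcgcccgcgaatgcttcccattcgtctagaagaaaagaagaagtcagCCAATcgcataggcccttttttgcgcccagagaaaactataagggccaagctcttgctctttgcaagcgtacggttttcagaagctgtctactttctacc
Hist1h1c: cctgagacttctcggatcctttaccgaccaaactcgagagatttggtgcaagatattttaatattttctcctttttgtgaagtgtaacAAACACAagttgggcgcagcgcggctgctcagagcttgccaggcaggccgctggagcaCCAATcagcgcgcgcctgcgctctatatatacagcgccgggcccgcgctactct
Hist2h2aa1: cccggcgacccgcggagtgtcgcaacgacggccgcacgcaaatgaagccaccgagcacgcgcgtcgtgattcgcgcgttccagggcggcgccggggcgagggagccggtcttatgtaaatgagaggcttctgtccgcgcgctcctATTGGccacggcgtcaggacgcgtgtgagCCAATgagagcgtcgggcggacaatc
Hist1h4i: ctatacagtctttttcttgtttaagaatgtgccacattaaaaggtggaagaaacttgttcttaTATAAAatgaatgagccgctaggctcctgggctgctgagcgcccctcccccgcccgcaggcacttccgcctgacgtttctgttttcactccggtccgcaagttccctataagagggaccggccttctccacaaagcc

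In the 300-base windows of the RefSeq table, which holds 61 of the 67 genes, CCAAT stood in 52 promoters, or 85.2% against 41.1% of all 27025 promoters. It was present in all 6 promoters of H1, 17 of H2A, 16 of H2B and 10 of H3, and in 3 of 12 of H4. TATAAA stood in 55.7% of the promoters against 15.7% of all. The octamer ATTTGCAT, recognised by POU factors, was found in 7 promoters of H2A, 7 of H2B and 0 of the other classes, or 14 of all 61, against 2.0% of all promoters. AAACACA, an element known from H1 genes, was found in 5 of 6 promoters of H1 and in 14.8% of all 61, against 8.2% of all promoters. The windows of Hist1h2ap and Hist1h2ao, which fell, and of Hist1h2bq and Hist1h2br, which rose, all held CCAAT and none of the other 3 motifs.

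The expected counts, RSEM's estimates of the reads of each gene, summed to between 18216114 and 20452144 per sample. Clustered histone genes took 0.0195 to 0.0208% of them in the day 0 samples, 0.0282 to 0.0311% in the day 4 samples and 0.0317 to 0.0348% in the day 8 samples. Between 43 and 44 of the 67 genes were listed in a day 0 sample, 51 to 52 in a day 4 sample and 50 to 53 in a day 8 sample. CPM below are counts relative to the TMM-scaled library size, and 3 counts, used as the lowest level that this depth can show, amount to 0.141 to 0.158 CPM. This floor covers counting error only, since amplified reads are not independent molecules.

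The summed level of the family rose over differentiation, from 201, 186 and 194 CPM in the day 0 samples to 284, 314 and 295 at day 4 and 357, 328 and 341 at day 8. No sample of an earlier day reached the lowest sample of a later day in CPM. The means ± SD were 194 ± 7.58, 298 ± 15.4 and 342 ± 14.5 CPM (n = 3 per day), or 1.54 times as much at day 4 and 1.77 times as much at day 8 as at day 0. In FPKM the sums were 366 ± 7.83, 482.5 ± 25.8 and 514 ± 27.3 (a day 8 to day 4 ratio of 1.07), and the day 4 and day 8 samples overlapped. Without the most abundant gene, Hist1h1c, the log2 ratio of summed CPM was 0.02 late (0.20 with it) and 0.59 over the whole process (0.82). Hist1h2ap and Hist1h2ao were set apart after their fall was seen, which by itself makes the rise of the rest larger, and the other 65 genes summed to 127 ± 14.4, 264 ± 10.01 and 333 ± 13.9 CPM. In bulk RNA, fewer cells that express a gene and less RNA per cell cannot be told apart.

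The classes did not move alike. H1 stood at 45.0 ± 5.84, 77.6 ± 4.56 and 120 ± 3.23 CPM at day 0, day 4 and day 8 and rose at both steps. H2B rose from 29.1 ± 2.38 to 66.3 ± 1.30 and 78.7 ± 3.61 CPM, H3 from 9.55 ± 0.790 to 17.6 ± 1.05 and 20.9 ± 2.44 CPM, and H4 from 4.83 ± 1.26 to 12.6 ± 0.647 and 15.8 ± 0.842 CPM. In these 4 classes the samples of the 3 days did not overlap. H2A was the exception, with 105 ± 2.80, 124 ± 9.07 and 107 ± 5.23 CPM, and its day 0 and day 8 samples overlapped. Within H2A, Hist1h2ap and Hist1h2ao together had 66.6 ± 7.83, 34.0 ± 5.74 and 9.08 ± 0.662 CPM, and the sum of the other 16 genes was 38.6 ± 5.07, 89.5 ± 4.49 and 97.4 ± 4.57 CPM. This split was made by the direction seen, so the opposite course of its parts is a description only. With the most abundant H2A gene, Hist2h2aa1, left out instead, the summed log2 ratio of H2A was -0.26 early and -0.86 over the whole process. Its summed FPKM, which weights short genes more, ran the other way early, at 227 ± 10.9, 219 ± 14.9 and 167 ± 9.52, with day 0 and day 4 overlapping.

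**Figure D1:**
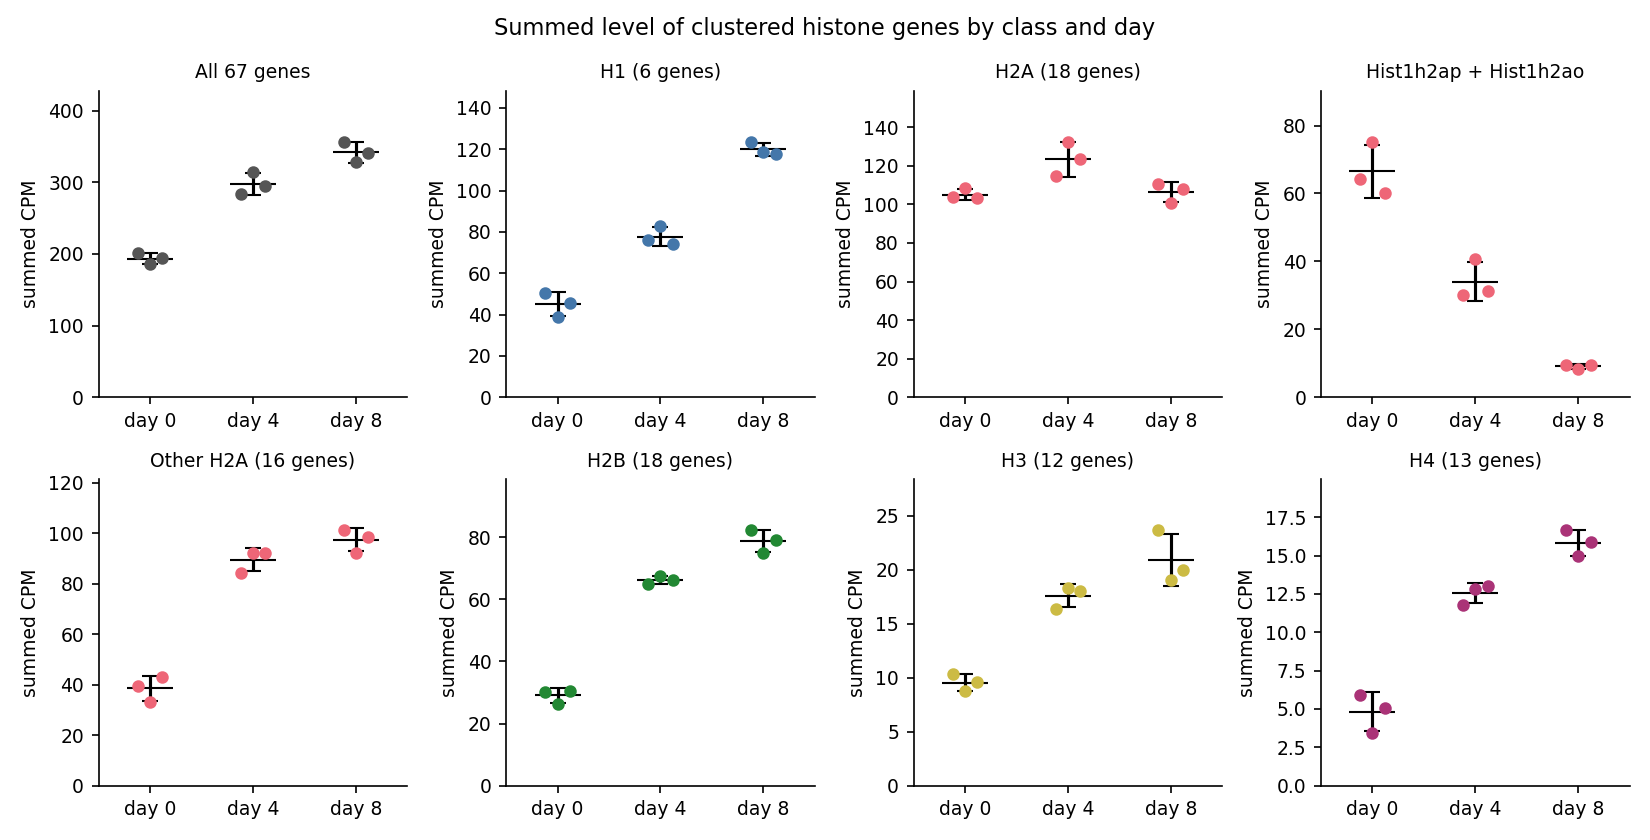
Summed CPM of clustered histone genes in each of the 9 samples (points) at day 0, 4 and 8, with the mean (bar) and SD (whiskers, n = 3 per day), for all 67 genes, for the 5 classes and for H2A split, after the values were seen, into Hist1h2ap with Hist1h2ao and the other 16 genes. The means of H1, H2B, H3 and H4 increase from day to day, while H2A as a whole has 105 CPM at day 0 and 107 CPM at day 8.

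Per length, H2A gave 62.1 ± 3.85% of the family's summed FPKM at day 0, 45.3 ± 0.668% at day 4 and 32.5 ± 0.436% at day 8. For H1 the share went from 18.2 ± 1.94% to 22.8 ± 0.792% and 32.1 ± 0.909%. H2B went from 11.2 ± 0.910% to 20.7 ± 0.223%, H3 from 4.81 ± 0.319% to 6.79 ± 0.542% and H4 from 3.70 ± 0.874% to 7.86 ± 0.0411% between day 0 and day 8.

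**Figure D2:**
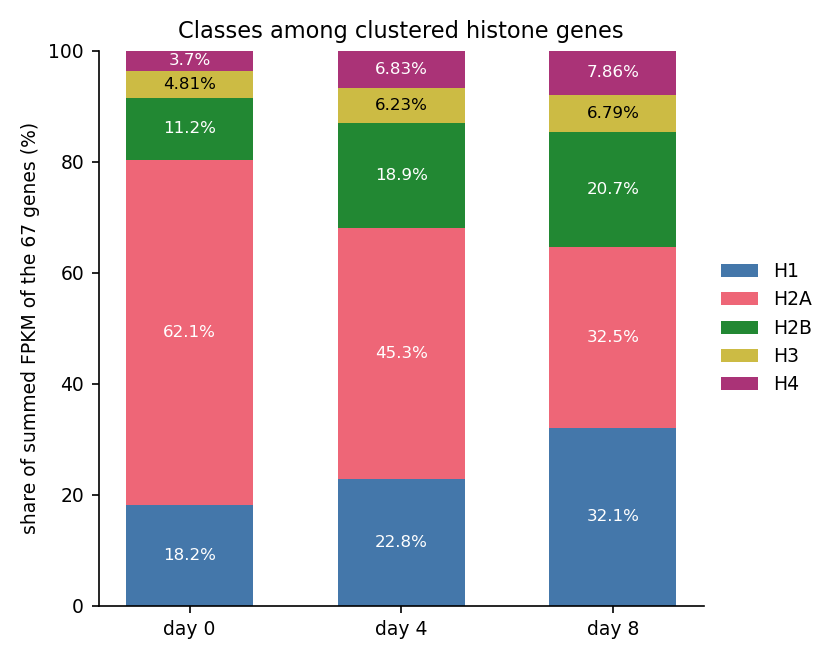
Share of each histone class in the summed FPKM of the 67 clustered histone genes at day 0, 4 and 8, as the mean over 3 samples per day. H2A takes 62.1% at day 0 and 32.5% at day 8, and H1 takes 18.2% and 32.1%.

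Only 30 of the 67 genes had enough counts to be tested, namely 3 of H1, 8 of H2A, 9 of H2B, 5 of H3 and 5 of H4. The other 37 had at most 25.3 counts in any sample, and summed to between 50.8 and 122 counts per sample. A gene was called higher or lower where edgeR's quasi-likelihood test gave an adjusted p under 0.05 and the fold change exceeded 2. In the early phase, day 4 against day 0, 12 of the 30 were called higher and 2 lower, or 40.0% and 6.67%. Among all 13154 genes tested, 9.77% were called higher and 7.98% lower. The filter asked for 0.496 CPM, here relative to the unscaled total, in at least 3 samples, and 12 of the 30 genes had fewer than 3 day 0 samples at this level, so they passed only with the help of later days. Of the genes called higher, 4 early and 6 over the whole process were of this kind, namely Hist1h1e, Hist1h2ac, Hist1h2bg and Hist1h4h in both comparisons and Hist1h3e and Hist1h4k in the second. A gene that passes through the days where it is high is bound to differ, so these calls support nothing by themselves and the counts are given as a description. The other 18 genes gave 8 called higher and 2 lower early, and 10 higher and 2 lower over the whole process, of which Hist2h3b had 1 day 4 sample and Hist1h2ao 2 day 8 samples at this level. The median log2 fold change was 0.86 for the 30 genes, 0.69 for those 18 and 0.02 for all genes.

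In the late phase, day 8 against day 4, 1 of the 30 genes was called higher and 2 lower, against 4.24% and 2.81% of all genes. The median was 0.29 against -0.01. Over the whole process, day 8 against day 0, 16 were called higher and 2 lower, or 53.3% and 6.67%, against 10.3% and 7.7% of all genes. The median was 1.19, or 1.09 for the 18 genes with all day 0 samples at the level of the filter, against -0.02. The 3 comparisons share samples and are not independent. By an adjusted p under 0.05 alone, 17 of the 30 were higher and 4 lower early, where 35.5% and 33.7% of all genes were. In the late phase 4 were higher and 2 lower, against 22.5% and 22.7%, and over the whole process 17 and 2, against 34.8% and 36.2%.

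**Figure D3:**
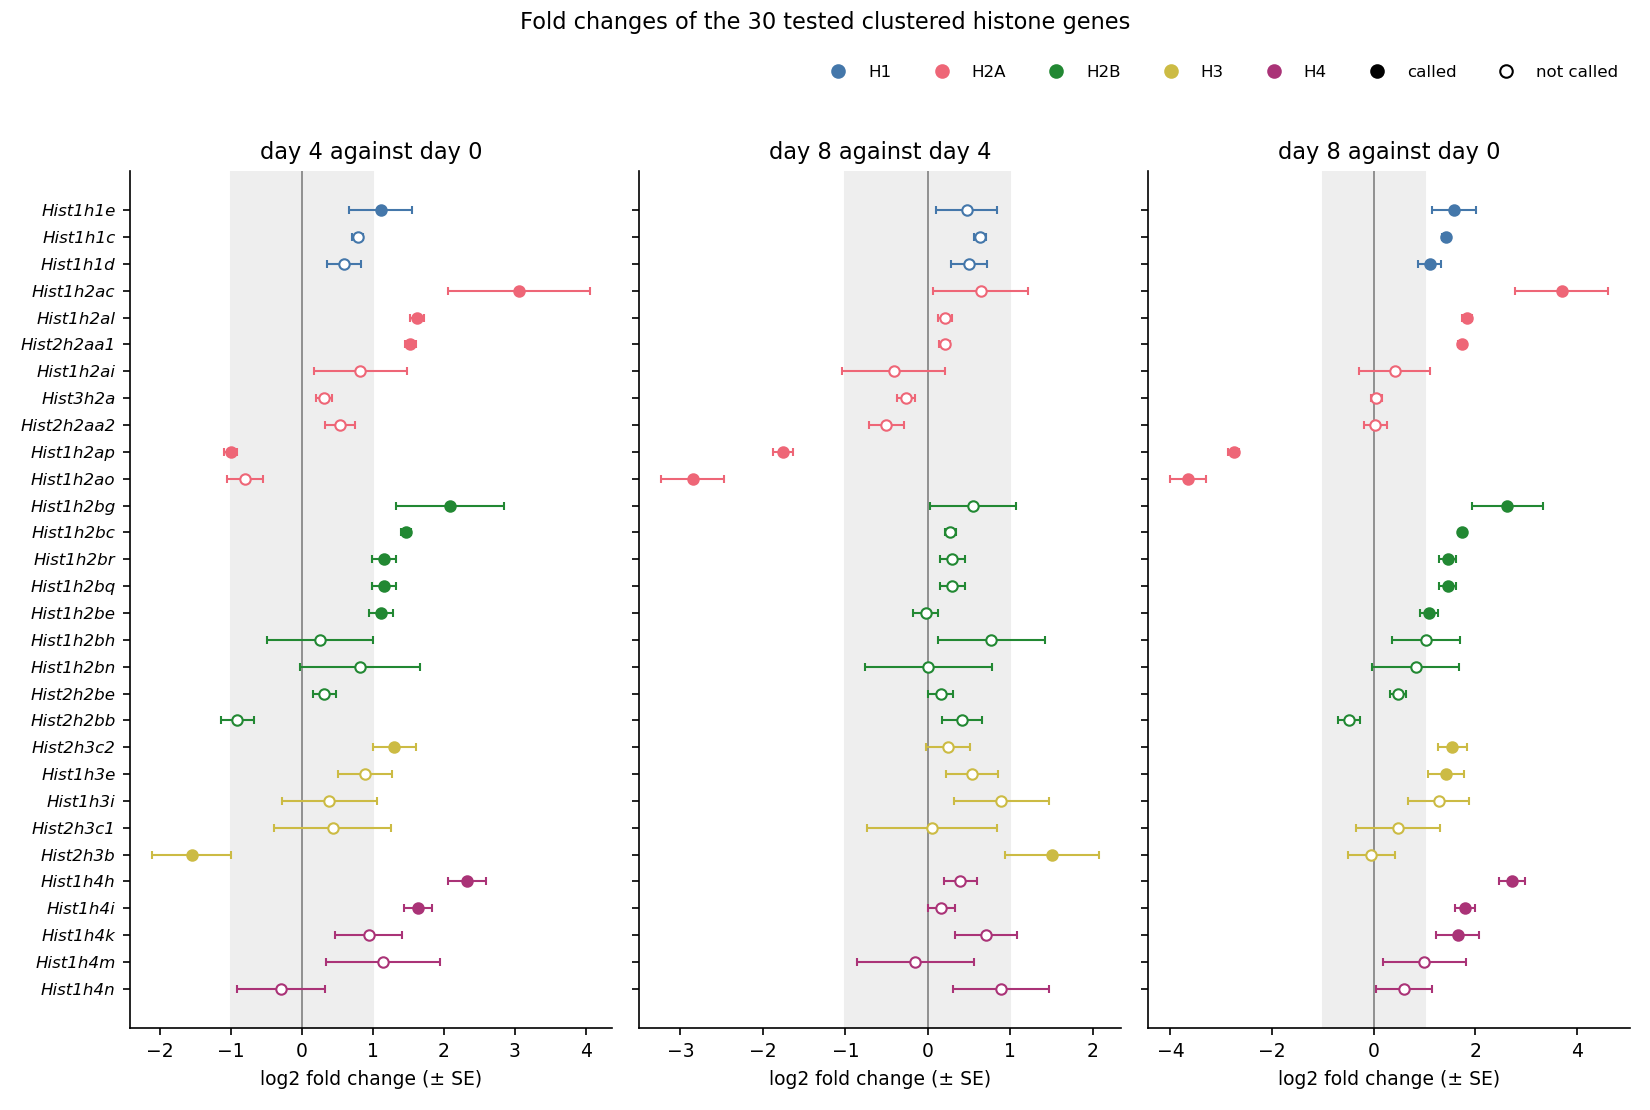
Log2 fold change with its standard error (edgeR, 3 against 3 samples) of the 30 tested clustered histone genes in the 3 comparisons, coloured by class, with filled points for called genes and a grey band for changes under 2-fold. Filled points lie mostly to the right of the band in the first and last panel, and Hist1h2ap and Hist1h2ao lie to its left in the last.

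Hist1h2ap (gene ID 319171), one of the genes that encode the common H2A protein, was the most abundant clustered histone gene at day 0 and fell at each step. It had 52.4, 64.0 and 50.2 CPM at day 0, 26.8, 31.4 and 24.7 at day 4 and 7.99, 7.80 and 8.82 at day 8, and no days overlapped. Its level per length went from 137 ± 19.2 to 65.1 ± 7.69 and 18.7 ± 1.07 FPKM. The log2 fold change was -1.003 ± 0.10 early (SE, adjusted p = 9.2e-08), -1.75 ± 0.12 late (5.4e-09) and -2.76 ± 0.11 over the whole process (2.3e-12), a 6.76-fold fall. The early value lies at the 2-fold threshold, and it was not called without day 0 replicate 2 (-0.89), day 4 replicate 1 (-0.98) or day 4 replicate 3 (-0.93).

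Hist1h2ao (gene ID 665433), a near copy of Hist1h2ap, fell more steeply in the late phase. It had 11.9, 11.3 and 9.95 CPM at day 0, 3.34, 9.19 and 6.55 at day 4 and 1.58, 0.529 and 0.544 at day 8. The day 4 samples were widely spread, but the days did not overlap. Its expected counts are, within 0.02 of a whole number, 2 to 49 times 5.155 in all 9 samples, and the day 8 values rest on 30.9, 10.3 and 10.3 counts. The log2 fold change was -0.80 ± 0.25 early (adjusted p = 0.011, under 2-fold and not called), -2.85 ± 0.38 late (1.6e-05) and -3.65 ± 0.36 over the whole process (1.3e-07). The early value was called without day 4 replicate 2 (-1.18) and was -0.49 without day 4 replicate 1, and without day 8 replicate 1 the late and whole-process values were -3.60 and -4.39. Stretches of 50 bases that also occur in transcripts of other genes made up 93.1% of Hist1h2ap and 93.5% of Hist1h2ao, so the split of reads between them is uncertain. Summed as a single feature, the pair gave -0.97 ± 0.10 early (not called), -1.90 ± 0.12 late and -2.87 ± 0.12 over the whole process, with an adjusted p of 2.7e-12 in the last.

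**Figure D4:**
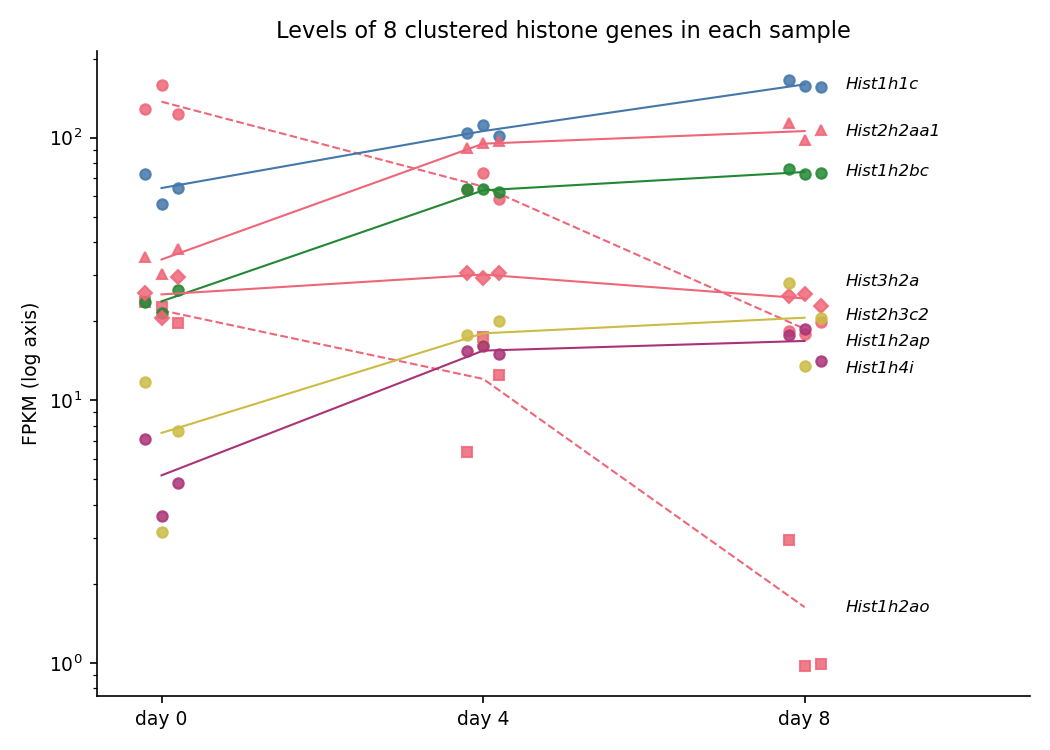
FPKM on a log axis of 8 clustered histone genes in each of the 9 samples (points), with lines through the means of 3 samples per day and colours by class as in the other plots (H1 blue, H2A red, H2B green, H3 yellow, H4 purple). The dashed lines of Hist1h2ap and Hist1h2ao fall to 18.7 and 1.63 FPKM at day 8, while Hist1h1c, Hist2h2aa1 and Hist1h2bc rise to 159, 106 and 74.0 FPKM. Hist3h2a stays between 20.6 and 30.6 FPKM.

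Hist2h2aa1 (gene ID 15267), an H2A gene of the chromosome 3 cluster, was the most abundant H2A gene over all samples and rose. It had 17.9, 15.3 and 19.1 CPM at day 0, 48.6, 51.1 and 51.4 at day 4 and 61.5, 53.6 and 59.0 at day 8. All later samples lay above every day 0 sample. The log2 fold change was 1.53 ± 0.08 early (adjusted p = 4.5e-11) and 1.73 ± 0.08 over the whole process (8.7e-12), with 0.20 ± 0.07 late (0.026, under 2-fold). Its near copy Hist2h2aa2 had 1.46 to 3.43 CPM in the 9 samples and was not called, at 0.03 ± 0.22 over the whole process. As a single feature, the pair rose by 1.45 ± 0.08 early and 1.63 ± 0.08 over the whole process.

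Hist1h2al (gene ID 667728), the transcribed pseudogene, rose from 6.20, 5.91 and 6.87 CPM to 17.3, 20.9 and 20.4 at day 4 and 22.5, 21.7 and 23.3 at day 8. Its log2 fold change was 1.83 ± 0.10 over the whole process (adjusted p = 6.3e-11). Its transcript in the files, at 2983 bases, is the longest of the 67. The GENCODE transcript searched has only 339 bases, of whose stretches 67.6% occur in other genes, and these would make up 6.68% of the length in the files, the rest of which was not searched. Hist3h2a (gene ID 319162), an H2A gene of the small chromosome 11 cluster, was not called in any comparison, with means of 25.3 ± 4.47, 30.1 ± 0.777 and 24.4 ± 1.31 FPKM and a whole-process log2 fold change of 0.05 ± 0.11.

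Hist1h2ac (gene ID 319164) was called higher at day 4 and day 8 from very few reads. Its expected counts were 0.00, 3.19 and 0.00 at day 0, 2.01, 5.80 and 18.6 at day 4 and 18.3, 10.3 and 12.6 at day 8, and the day 0 and day 4 samples overlapped. No day 0 sample reached the level of the filter. Summed counts of 3, 26 and 41 gave a day 4 to day 0 ratio of 8.90 with an exact 95% counting interval of 2.73 to 45.9, and a day 8 to day 0 ratio of 14.5 (4.62 to 73.1). The fitted log2 fold changes, 3.05 ± 1.00 and 3.69 ± 0.91 (adjusted p = 0.013 and 0.0018), depend on the prior count. The early call was lost without day 4 replicate 3 (1.90) and with limma on log2(FPKM + 1) (0.71). Without day 0 replicate 2, the only day 0 sample with a count, the fit gave 6.20 early and 6.84 over the whole process, and without day 4 replicate 3 the late value went from 0.64 to 1.80 and was called. Hist1h2ai, the remaining tested H2A gene, was not called, with 0 to 0.886 CPM and 90.1% of its stretches shared. Summed with its near copies Hist1h2ag, Hist1h2ah and Hist1h2an, it was called higher early (1.24 ± 0.40, adjusted p = 0.011) and not over the whole process (0.77 ± 0.43, 0.12). Day 0 replicate 1 of this sum had 0.273 CPM, under the level of the filter. The sum therefore passed only with the help of later days, and its call supports nothing by itself.

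Hist1h1c (gene ID 50708), a linker histone gene, had the highest mean level of all 67 genes, 110 FPKM over the 9 samples, and made up 96.0 to 96.5% of the summed CPM of H1. It had 49.0, 37.1 and 43.5 CPM at day 0, 73.4, 79.3 and 70.9 at day 4 and 119, 114 and 115 at day 8. The days did not overlap, and the increase was similar at both steps. Its log2 fold change was 0.78 ± 0.08 early (adjusted p = 1.3e-07) and 0.64 ± 0.07 late (2.4e-06), both under 2-fold, and 1.42 ± 0.08 over the whole process (6.5e-11), a 2.68-fold rise. Of its stretches in GENCODE, 8.5% occur in other genes, and these could make up as much as 19.1% of the deposited transcript length.

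The other tested H1 genes were scarce. Hist1h1d (gene ID 14957) had means of 1.74 ± 0.304, 2.54 ± 0.142 and 3.48 ± 0.918 FPKM and rose by 1.10 ± 0.23 over the whole process (adjusted p = 4.7e-04), a call lost without day 8 replicate 1 (0.95), with library size alone (0.99) and with limma on log2(FPKM + 1) (0.69) or log2(FPKM + 0.1) (0.93). Hist1h1e (gene ID 50709) had 0.128, 0.397 and 0.713 CPM at day 0, 0.483, 1.10 and 1.17 at day 4 and 1.24, 1.49 and 1.13 at day 8. The day 0 and day 4 samples overlapped, and the day 8 samples lay above those of day 0. It rose by 1.11 ± 0.45 early (adjusted p = 0.037) and 1.58 ± 0.42 over the whole process (0.0034). With limma on log2(FPKM + 1) both calls were lost (0.49 and 0.77). The early call was lost without day 0 replicate 1 (0.68) or 2 (1.10), or day 4 replicate 2 (0.95) or 3 (0.90), and without day 0 replicate 3 the values were 1.72 early and 2.19 over the whole process.

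Hist1h2bc (gene ID 68024) was the most abundant H2B gene, with 55.3% of the summed CPM of its class at day 0 and 68.4% at day 8. It had 16.01, 14.4 and 17.8 CPM at day 0, 44.9, 45.1 and 43.5 at day 4 and 54.7, 53.1 and 53.9 at day 8. Each day stood apart from the others, with most of the increase before day 4. The log2 fold change was 1.47 ± 0.07 early (adjusted p = 2.0e-11), 0.28 ± 0.06 late (0.0020, under 2-fold) and 1.74 ± 0.07 over the whole process (2.0e-12). Of its stretches in GENCODE, 30.1% occur in other genes, which could make up as much as 49% of the deposited length.

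Hist1h2bq and Hist1h2br (gene IDs 665596 and 665622) had the same expected count in all 9 samples, and near all of their stretches are shared, 100% and 99.8%. Each was given 2.19, 1.70 and 1.98 CPM at day 0, 4.32, 4.04 and 4.66 at day 4 and 5.95, 4.47 and 5.56 at day 8, so they hold a single measurement divided evenly. Summed as a single feature, they rose by 1.14 ± 0.14 early (adjusted p = 1.9e-06) and 1.44 ± 0.14 over the whole process (8.5e-08). Taken apart, the early call of each was lost with limma on log2(FPKM + 1) (0.91). Hist1h2be (gene ID 319179), with 17.5% of its stretches shared, rose from 2.66, 2.33 and 2.22 CPM to 4.46, 5.63 and 5.42 at day 4 and stood at 6.05, 4.90 and 4.29 at day 8. Its log2 fold change was 1.12 ± 0.17 early (adjusted p = 2.3e-05) and 1.09 ± 0.17 over the whole process (2.9e-05), where the call was lost without day 8 replicate 1 (0.95), with library size alone (0.98) and with limma on log2(FPKM + 1) (0.60) or log2(FPKM + 0.1) (0.91). With limma on log2(FPKM + 1) the early call was lost too (0.82).

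Hist1h2bg (gene ID 319181) had 0.00, 5.66 and 0.00 counts at day 0, 7.84, 10.8 and 7.39 at day 4 and 13.1, 15.3 and 9.25 at day 8, and it too passed the filter through later samples alone. Summed counts of 6, 26 and 38 gave ratios to day 0 of 4.45 (exact 95% counting interval 1.79 to 13.2) and 6.71 (2.81 to 19.4). It was called higher early (2.08 ± 0.76, adjusted p = 0.023) and over the whole process (2.63 ± 0.71, 0.0034). The early call was lost without day 0 replicate 1 (1.5) or 3 (1.5) or day 4 replicate 2 (1.87). With limma on log2(FPKM + 1) it was lost too (0.73). Without day 0 replicate 2, the only day 0 sample with a count, the fit gave 6.14 early and 6.69 over the whole process, and without day 0 replicate 3 the whole-process value was 2.04, so the size of the fold rests on the day 0 samples. Hist2h2bb went the other way early, from 2.69, 2.09 and 2.26 CPM to 1.10, 1.49 and 1.17, a log2 fold change of -0.91 ± 0.23 (adjusted p = 0.0022) that did not reach 2-fold. Hist2h2be, Hist1h2bh and Hist1h2bn were not called, at 0.47 ± 0.16, 1.02 ± 0.67 and 0.83 ± 0.85 over the whole process.

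Some H2A and H2B genes stand back to back and share the stretch between their starts. In GENCODE vM21, 12 pairs of clustered histone genes lie on opposite strands with starts within 1000 bases, 11 of them an H2A gene with an H2B gene, and both genes were tested in 3 pairs. Hist1h2ac and Hist1h2bc, with 251 bases between their starts, were both called higher early and over the whole process, though Hist1h2ac passed the filter through later days alone and its early call was lost without day 4 replicate 3. In the other 2 pairs the genes went in opposite directions over the whole process. Hist1h2ap fell by 2.76 while Hist1h2br, 236 bases away, rose by 1.45 on the log2 scale. Hist1h2ao fell by 3.65 while Hist1h2bq, 268 bases away, rose by 1.45. The reads of all 4 are shared with near copies, so the pairs cannot be told apart from each other.

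Hist2h3c2 (gene ID 97114) led the H3 class with 15.4 FPKM over all samples. It had 7.05, 1.87 and 4.57 CPM at day 0, 11.1, 10.2 and 12.5 at day 4 and 17.8, 8.71 and 13.4 at day 8. The day 0 and day 8 samples did not overlap, and both were widely spread. It was called higher early (1.30 ± 0.30, adjusted p = 0.0011) and over the whole process (1.55 ± 0.29, 1.9e-04), and the early call was lost without day 0 replicate 2 (0.95).

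This gene shares its reads with Hist2h3c1 and Hist2h3b, which encode the same kind of H3 protein. Hist2h3c1 (gene ID 15077), all of whose stretches are shared, was given 0.00, 83.7 and 41.8 counts at day 0, 41.8, 83.7 and 41.8 at day 4 and 0.00, 126 and 41.8 at day 8. The values above 0 are, within 0.02 of a whole number, 1 to 3 times 41.8 in all 7 samples. Within each day, Hist2h3c2 was lowest in the sample where Hist2h3c1 was highest. Hist2h3b (gene ID 319154) was called lower early (-1.55 ± 0.56, adjusted p = 0.021) and higher late (1.51 ± 0.57, 0.040) from counts of 28.0, 15.1 and 14.9, then 11.4, 8.49 and 0.00, then 20.4, 22.7 and 10.1. The early call was lost without day 0 replicate 1 (-1.22) or day 4 replicate 3 (-0.98), and the late call without day 4 replicate 2 (1.73) or 3 (0.94) or day 8 replicate 1 (1.42) or 2 (1.28). Without day 4 replicate 1 the values were -2.20 and 2.15. With limma on log2(FPKM + 1) both calls were lost (-0.91 and 0.81), and with limma on log2(FPKM + 0.1) the late call (1.9).

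Summed as a single feature, the 3 genes had 8.37, 7.04 and 7.25 CPM at day 0, 13.8, 14.7 and 14.6 at day 4 and 18.9, 16.3 and 16.1 at day 8. The spread of Hist2h3c2 alone was gone from this sum, and its days did not overlap. The sum was 1.90-fold higher early (log2 0.93 ± 0.10, not called) and rose 2.26-fold over the whole process (1.18 ± 0.10, adjusted p = 1.7e-08). Hist1h3e (gene ID 319151), with 73.4% of its stretches shared, rose from 0.444, 0.458 and 0.233 CPM at day 0 to 0.939, 0.997 and 1.17 at day 8. It rose by 1.43 ± 0.35 over the whole process (adjusted p = 0.0019), a call lost with limma on log2(FPKM + 1) (0.79). Its early value, 0.89 ± 0.38, was called without day 0 replicate 2 (1.07) or day 4 replicate 3 (1.03). Hist1h3i was not called, at 1.28 ± 0.60 (adjusted p = 0.068) over the whole process, but was called without day 0 replicate 3 (2.06) or day 8 replicate 2 (1.55) or 3 (1.57). It was 0.52 without day 8 replicate 1, which had 52.3 counts against 16.8 and 16.1 in the other day 8 samples.

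Of the H4 genes, Hist1h4i (gene ID 319158) was the most abundant and Hist1h4h (gene ID 69386) changed most. Hist1h4i had 2.55, 1.28 and 1.73 CPM at day 0, 5.74, 6.03 and 5.59 at day 4 and 6.80, 7.20 and 5.50 at day 8. All later samples exceeded those of day 0, and day 4 and day 8 overlapped. It rose by 1.63 ± 0.20 early (adjusted p = 1.6e-06) and 1.80 ± 0.19 over the whole process (4.3e-07). Hist1h4h had 0.823, 0.237 and 0.877 CPM at day 0, 3.04, 3.09 and 3.94 at day 4 and 4.39, 4.12 and 4.73 at day 8, with no overlap between days. It rose by 2.33 ± 0.27 early (adjusted p = 1.3e-06) and 2.72 ± 0.26 over the whole process (1.2e-07), a 6.58-fold rise. Day 0 replicate 2, with 4.52 counts, was under the level of the filter. Hist1h4h thus passed only with the help of later days, and these calls support nothing by themselves.

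Hist1h4k (gene ID 319160) had 0.192, 0.265 and 0.435 CPM at day 0 and 1.14, 0.581 and 1.10 at day 8. It rose by 1.65 ± 0.43 over the whole process (adjusted p = 0.0028), a call lost with limma on log2(FPKM + 1) (0.89). Its early value, 0.94 ± 0.47, was called without day 4 replicate 2 (1.19). The near copies Hist1h4m and Hist1h4n were not called, alone or as a single feature, which gave 0.76 ± 0.27 over the whole process (adjusted p = 0.020). Alone, Hist1h4n was called higher late without day 4 replicate 2 (1.92, with 0.88 in all samples). Between 28.9 and 89.8% of the stretches of the 5 tested H4 genes occur in other genes. Against the deposited lengths, the shared stretches could make up as much as 50% of Hist1h4h, 55.4% of Hist1h4i and 100% of Hist1h4n.

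Across the family, more than 20% of the stretches were shared in 53 of the 67 genes and in 24 of the 30 tested. With those left out, the 6 remaining tested genes gave 2 called higher early and 4 over the whole process, and 0 called lower, where 9.77% and 10.3% of all genes were called higher and 7.98% and 7.7% lower. The transcripts searched are longer than those of the files for some genes and shorter for others, such as Hist1h2al. Set against the lengths in the files, the shared stretches could make up as much as 78.1% of Hist1h2ac, 61.7% of Hist1h2bh and 22.8% of Hist1h1d. The other 3 genes, which stay under 20% on either length, gave 1 called higher early and 2 over the whole process. None of the 6 was lower at an unadjusted p under 0.05 in edgeR either, but Hist1h2ac and Hist1h2bh had no day 0 sample at the level of the filter, so a value above 0 against day 0 was built in for both. With near copies summed, 24 features were tested, of which 11 were called higher early and 15 over the whole process, and 0 and 1 were called lower. Of all features in that fit, 9.76% and 10.3% were called higher and 7.97% and 7.7% lower. Some features called higher passed the filter only with the help of later days. These were Hist1h1e, Hist1h2ac, Hist1h2bg and Hist1h4h in both comparisons. The sum of Hist1h2ai with its near copies was of this kind early, and Hist1h3e and Hist1h4k over the whole process. The counts of summed features are therefore a description too. Leaving out each sample in turn gave 10 to 12 genes called higher early, 0 to 4 lower early and 14 to 18 higher over the whole process. The count lower early was 4 without day 4 replicate 2, 0 without day 4 replicate 3 and 1 without day 0 replicate 1, day 0 replicate 2 or day 4 replicate 1.

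Genes that work beside the clustered histones were described from lists. Of 11 variant histone genes outside the clusters, all tested, none was called in any comparison with edgeR. DESeq2 called 0 as well. At an adjusted p under 0.05 alone, 3 were higher and 3 lower early, and 5 were higher and 2 lower over the whole process, and an unadjusted p under 0.05 gave the same counts. Among all genes tested, 35.5% were higher and 33.7% lower by adjusted p alone early, and 34.8% and 36.2% over the whole process. H3f3a, H3f3b and H1f0, the most abundant, had 331 ± 8.90, 315 ± 10.7 and 129 ± 2.95 FPKM at day 0 and 359 ± 18.8, 331 ± 4.71 and 143 ± 2.84 at day 8. H2afx and H2afj were picked after their values were seen. H2afx, the variant marked at DNA breaks, was 1.95-fold higher at day 4 (log2 0.97 ± 0.07, adjusted p = 1.3e-09) and 0.23 ± 0.07 above day 0 at day 8, and H2afj was 0.97 ± 0.05 higher at day 4.

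Of 26 tested genes for the synthesis and processing of histone messages, 2 were called higher and 0 lower early, and 1 higher and 0 lower over the whole process, where 9.77% and 7.98% of all genes were called early and 10.3% and 7.7% over the whole process. Slbp and Npat are given for their roles, with their values already seen. Slbp, which binds the stem-loop shown above, had 20.1 ± 2.33, 18.6 ± 1.35 and 17.9 ± 0.536 FPKM and was not called. Npat, which switches on histone genes in S phase, was lower by less than 2-fold, with a log2 fold change of -0.65 ± 0.07 over the whole process. Lsm11, a part of the U7 particle that cuts histone messages, rose by 1.38 ± 0.11 early (adjusted p = 1.5e-08) from 0.907 to 2.27 FPKM. The other gene called was Zfp36l3, with 0.0267, 0.147 and 0.330 FPKM at day 0, day 4 and day 8. It had at most 2 counts in a day 0 sample and passed the filter through later days alone, so its calls, 1 of the 2 early and the only call over the whole process, support nothing by themselves. The most abundant, Upf1, Yy1 and Srrt, all changed by less than 2-fold.

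Of 23 histone chaperone genes, 1 was called lower early, and 1 higher and 1 lower over the whole process, where 9.77% and 7.98% of all genes were called higher and lower early and 10.3% and 7.7% over the whole process. At an adjusted p under 0.05 alone, 4 were higher and 16 lower early, against 35.5% and 33.7% of all genes, and 3 were higher and 19 lower over the whole process, against 34.8% and 36.2%. Chaf1b, a subunit of the factor that loads H3 and H4 on new DNA, fell by 1.33 ± 0.12 on the log2 scale early. Asf1b, which hands H3 and H4 to that factor, rose by 1.02 ± 0.15 over the whole process, a call lost with library size alone (0.91). Nap1l1, Set and Rbbp7, the most abundant, were lower by 0.65 ± 0.06, 0.44 ± 0.06 and 0.23 ± 0.06 early.

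Of 38 genes of DNA synthesis, 1 was called higher and 5 lower early, and 1 higher and 3 lower over the whole process, against 9.77% and 7.98% of all genes early and 10.3% and 7.7% over the whole process. At an adjusted p under 0.05 alone, 28 were lower and 2 higher early, against 33.7% lower and 35.5% higher among all genes tested. In the late phase 0 were lower and 9 higher, against 22.7% and 22.5%. Over the whole process 23 were lower and 4 higher, against 36.2% and 34.8%. The median log2 fold change of the list was -0.47 early, where it was 0.86 for the 30 clustered histone genes and 0.69 for the 18 that did not need later days to pass the filter. The polymerase genes Pole and Pola1 fell by 1.46 ± 0.13 and 1.27 ± 0.11 early, and Mki67, found in cycling cells, fell by 1.32 ± 0.12. Pcna, the most abundant, had 79.6 ± 10.8 FPKM at day 0 and 55.3 ± 3.08 at day 4, and Ung, a repair enzyme, rose by 1.22 ± 0.16. The difference between the lists was not tested.

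**Figure D5:**
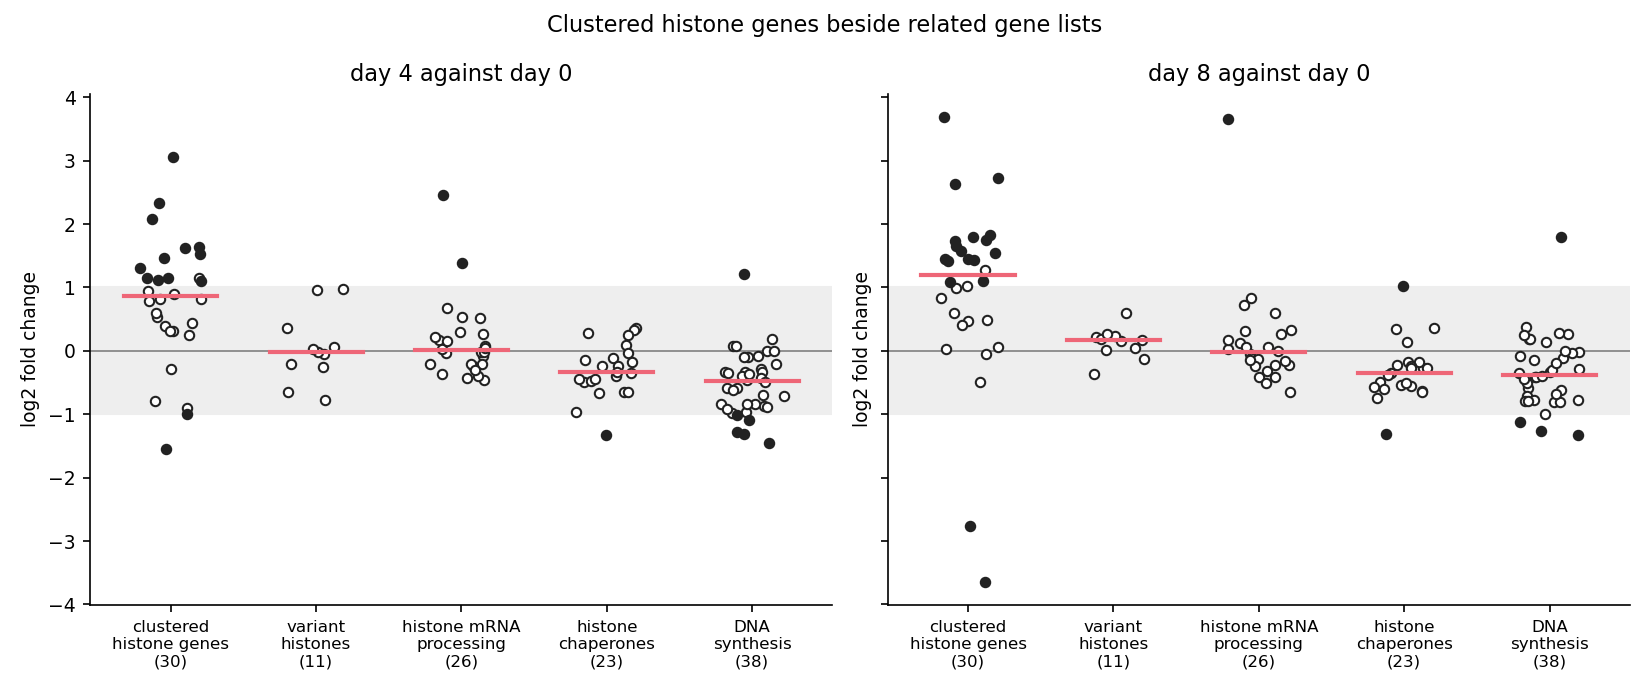
Log2 fold change of each tested gene (points, filled where called) of the clustered histone genes and of 4 related lists at day 4 and at day 8 against day 0, with the median of each list (red line) and a grey band for changes under 2-fold. The early medians are 0.86 for the clustered histone genes, -0.02 for variant histones, 0.01 for histone message processing, -0.34 for chaperones and -0.47 for DNA synthesis.

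RNAs known to lack a poly(A) tail were at low levels. Of 12 such RNAs, 10 were listed in at least 1 sample and 1 was tested, Rn7sk, with 7.52 ± 1.12, 7.28 ± 2.62 and 9.22 ± 2.31 FPKM at day 0, day 4 and day 8 and a log2 fold change of 0.40 ± 0.25 over the whole process (adjusted p = 0.15). The next, Rmrp, had 0.407 ± 0.352, 1.09 ± 1.39 and 0.480 ± 0.321 FPKM. The part of message ends and of RNA selection in the levels of the clustered histone genes was not tested.

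Markers of adipocytes and fibroblasts were abundant. All 10 adipocyte markers were called higher early, against 9.77% of all genes, and 5 of them had fewer than 3 day 0 samples at the level of the filter. Their summed level went from 144 to 149 FPKM in the day 0 samples to 9150 to 9968 in the day 8 samples, led by Fabp4. Of 8 fibroblast and preadipocyte markers, Fn1 and Dlk1 were called lower early, Dlk1 higher late and Fn1 lower over the whole process. Their summed level was 8879 to 9191 FPKM in the day 0 samples, 5961 to 6528 in the day 4 samples and 7810 to 8053 in the day 8 samples. By adjusted p alone, 1 was higher and 6 lower early, 5 higher and 3 lower late, and 3 higher and 3 lower over the whole process, with medians of -0.24, 0.59 and -0.05 on the log2 scale. The shares over all genes were 35.5% and 33.7% early, 22.5% and 22.7% late, and 34.8% and 36.2% over the whole process, and 7.98% were called lower early, 4.24% higher late and 7.7% lower over the whole process. Vim, the most abundant over all samples, had 2541 ± 83.3 FPKM at day 0 and 1425 ± 55.6 at day 8, while Col1a1 had 1540 ± 39.1 and 2270 ± 18.3. Macrophage markers summed to 4.35 to 6.67 FPKM per sample, led by Cd14, with 0 called, and endothelial markers to 0.280 to 1.15 FPKM, of which 2 were tested. Vwf fell from 0.470 to 0.0300 FPKM and Pecam1, which passed the filter through later days alone, went from 0.130 to 0.257 FPKM by day 8, a call lost with library size alone (0.99). Neuron markers summed to 0.580 to 0.900 FPKM in the day 0 samples, 1.37 to 1.58 at day 4 and 1.48 to 1.73 at day 8. Scn10a and Tac1 were at 0.00 FPKM at day 0 and day 4. The 1 neuron marker tested, Snap25, was the most abundant and also passed the filter through later days alone. It was called higher early (log2 fold change 5.45) and over the whole process (5.47), calls that support nothing by themselves. At day 8 it stood at 1.10 ± 0.0493 FPKM.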

How the data were processed

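Per the labels and the study's methods, the authors removed poor reads, mapped the rest with HISAT and Bowtie2 and ran RSEM to estimate expression, and the processing notes also name CASAVA 1.4. The deposited expected counts are not normalized, and the deposited FPKM are scaled by the authors to gene length and depth. The genome build is not given in the sources used here. Counts were rounded, filtered (filterByExpr by day), scaled with TMM factors (0.954 to 1.05) and tested in R 4.3.3 with edgeR 4.0.16 in a single quasi-likelihood model of all 9 samples, with Benjamini-Hochberg adjustment over 13154 genes. SE is the size of the log2 fold change divided by the root of F. Calls needed both an adjusted p under 0.05 and more than 2-fold change. Alternatives used DESeq2 1.42.0, limma 3.58.1, edgeR's exact test, other factors, filters and pseudocounts (1 and 0.1), a replicate block and left-out samples. Steps were tested on simulated data. The members and lists were chosen with earlier results of these data known. Every called member and the 3 most abundant tested members of each class were named. Of each list, the most abundant gene and some others were named, not every called gene. No replicates differed by less than counting noise (chi-square per gene 2.40 to 10.7 in the 9 pairs).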

Additional observations from a re-analysis of the deposited data

How the results depend on the processing

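Of 35 calls of a gene in a comparison, 20 were kept in every alternative that tested them and 15 lost in at least 1, and 0 turned direction. Of the 20, only 7 were tested in every alternative, while 4, of Hist1h2ac, Hist1h2bg and Hist1h4h, were untested with at least 10 counts in every sample and 9 were untested as single genes with near copies merged. The main counts of clustered histone genes were 12 higher and 2 lower early, 1 higher and 2 lower late, and 16 higher and 2 lower over the whole process. With limma on log2(FPKM + 1), which understates changes of low genes, they were 6 higher and 1 lower early and 0 higher late, and with limma on log2(FPKM + 0.1) 0 were higher late. Over the whole process, limma on log2(FPKM + 1) lost the calls of Hist1h1d (0.69), Hist1h1e (0.77), Hist1h2be (0.60), Hist1h3e (0.79) and Hist1h4k (0.89). With at least 10 counts in every sample, which leaves fewer genes tested, 0 were lower early, 0 higher late and 10 higher over the whole process, and with no filter 3 were higher late. By adjusted p alone, 4 were lower early and 4 higher late, against 33.7% and 22.5% of all genes. With near copies merged, chosen after seeing the data, 0 were lower early, 0 higher late, 1 lower late and 1 lower over the whole process. Without the genes sharing over 20% of their stretches, 2 were higher and 0 lower early, 0 higher and 0 lower late, and 4 higher and 0 lower over the whole process. Leaving out each sample in turn gave 0 to 4 lower early and 0 to 1 higher late, with 0 without day 8 replicate 1 or day 8 replicate 2.

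The log2 ratio of the summed level of all 67 genes was 0.62 early, 0.20 late and 0.82 over the whole process in CPM, and 0.40, 0.09 and 0.49 in FPKM. Library size alone, which moves the median of all genes to -0.13 over the whole process, gave 0.71. Without Hist1h1c it was 0.02 late and 0.59 over the whole process. For H2A, at 0.23, -0.21 and 0.02, summed FPKM gave -0.06, -0.39 and -0.44, leaving out Hist2h2aa1 gave -0.26, -0.60 and -0.86, and library size alone gave -0.09 over the whole process. Chosen after seeing the data, H2A without Hist1h2ap and Hist1h2ao gave 1.22, 0.12 and 1.34, and without Hist1h2al 0.07 early and -0.23 over the whole process. Without its most abundant gene, H1 gave 0.43 late (0.63 with it), H2B 0.74 early (1.19) and 0.94 over the whole process (1.44), H3 0.33 early (0.88) and 0.59 over the whole process (1.13), and H4 0.47 late (0.34). H3 genes counted in every sample gave 1.28 early and 1.52 over the whole process. DESeq2 called 0 processing genes higher late (1 in edgeR), and library size alone gave 2 chaperone genes lower early (1) and 0 higher over the whole process (1).

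No gene whose direction turned was called in that comparison. Hist3h2a over the whole process (0.05) gave -0.06 with library size alone, -0.04 with limma at either pseudocount and -0.07 (without day 0 replicate 2) to 0.18 in the leave-outs. Hist2h3c1 late (0.05) gave -0.52 and -1.5 with limma at pseudocounts of 1 and 0.1, -0.20 with the replicate block and -1.35 (without day 8 replicate 2) to 0.64 in the leave-outs. Over the leave-outs, Hist2h3c1 ran from -0.17 (without day 0 replicate 1) to 1.49 early and from -0.92 (without day 8 replicate 2) to 1.54 over the whole process. Hist1h2be late ran from -0.17 to 0.11, Hist1h3i early from -0.15 to 1.17, Hist1h4n early from -1.31 to 0.28, Hist2h3b over the whole process from -0.27 to 0.29 and Hist2h3c2 late from -0.02 to 0.48. The causes were not tested.

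Same-numbered samples deviated together with correlations of -0.03 to 0.08 in 9 pairs (mean 0.03), against -0.10 to 0.06 in 18 other pairs (mean -0.02). Values this small cannot settle whether the numbers pair the samples. The replicate block gave 12 higher and 2 lower early, 1 and 2 late, and 17 and 2 over the whole process. Depth limits 37 of the 67 genes, which had too few counts to test.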
